A study of Mus musculus with 16 samples.

Results

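The oligodendrocyte lineage was followed through 10 genes in RNA of the whole mouse brain, with and without a frameshift in Tecpr2. The genes were chosen by name from the 55404 genes of the expression table, and each had 1 row there. Pdgfra and Cspg4 mark the precursor cells, Gpr17, Bcas1 and Enpp6 mark cells that have committed to differentiation, and Olig1, Olig2, Sox10, Nkx2-2 and Myrf encode transcription factors of the lineage. All 10 genes passed the limits on low values and were tested.

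The brains came from 8 mice with the knock-in (Tecpr2 ki/ki) and 8 controls (wt/wt), untreated animals 5 months of age and, per the study's paper, male. The ki/ki mice were homozygous for Tecpr2 L1152fs, a frameshift allele introduced by CRISPR/Cas9 in C57BL/6J zygotes, and the wt/wt mice were wild-type littermates. The allele is constitutive, so every cell type of the brain carried it, and loss of TECPR2 in people causes the hereditary sensory and autonomic neuropathy HSAN9. The values below are the authors' normalised read counts per gene, rounded to whole numbers, and the step size between low values put the depth of each library at 9230000 to 15390000 reads on genes, with a median of 12000000 in ki/ki and 13135000 in wt/wt mice. Tecpr2 itself, read as a check of the labels, had a normalised value of 300.2 ± 14.1 in ki/ki and 963.4 ± 24.4 in wt/wt mice (mean ± SD, n = 8 each), and no ki/ki mouse reached any wt/wt mouse.

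Oligodendrocytes make the myelin of the central nervous system. They arise from precursor cells that remain in the adult brain, divide in answer to platelet-derived growth factor, and pass through a short committed stage before they express myelin genes. OLIG2 and SOX10 act through most of the lineage, NKX2-2 acts around the onset of differentiation, and MYRF switches on myelin genes in the cells that mature. In bulk RNA of a whole brain, fewer cells of a type and less RNA per cell cannot be told apart.

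Because several of the 10 genes encode factors with known binding letters, stretches of DNA before the start sites are shown as the places where such letters would lie. RefSeq promoter windows of GRCm38.p6, covering 250 bases before the start, were at hand for 5 of the 10 genes, Pdgfra, Cspg4, Enpp6, Olig2 and Nkx2-2. Bases covered by an annotated exon were left out, so that 179 bases are shown for Cspg4 and 197 for Nkx2-2, the latter from an intron of the longer GENCODE gene model, and only 30 bases around the match are shown for Olig2, where that match lies in an exon. Capitals mark the SOX letters ACAAT or, read on the other strand, ATTGT.
Pdgfra (chr5:75152001-75152250, + strand): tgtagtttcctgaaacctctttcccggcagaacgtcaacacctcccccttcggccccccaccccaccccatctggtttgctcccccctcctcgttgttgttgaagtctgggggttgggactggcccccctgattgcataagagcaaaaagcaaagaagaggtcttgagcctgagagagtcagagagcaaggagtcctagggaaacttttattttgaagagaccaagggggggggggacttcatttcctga
Cspg4 (chr9:56864854-56865032, + strand): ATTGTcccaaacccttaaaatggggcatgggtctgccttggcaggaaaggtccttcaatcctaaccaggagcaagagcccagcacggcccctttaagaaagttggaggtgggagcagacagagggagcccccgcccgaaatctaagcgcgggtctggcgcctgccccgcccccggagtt
Enpp6 (chr8:46986637-46986886, + strand): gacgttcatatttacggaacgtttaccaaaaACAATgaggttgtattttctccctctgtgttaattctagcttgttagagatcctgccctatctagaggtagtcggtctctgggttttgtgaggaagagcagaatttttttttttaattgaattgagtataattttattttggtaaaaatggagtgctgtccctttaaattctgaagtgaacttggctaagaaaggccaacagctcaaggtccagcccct
Nkx2-2 (chr2:147186456-147186652, - strand): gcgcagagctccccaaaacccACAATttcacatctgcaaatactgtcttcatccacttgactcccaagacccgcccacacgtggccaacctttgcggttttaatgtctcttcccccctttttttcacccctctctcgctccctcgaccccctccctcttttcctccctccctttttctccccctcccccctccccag
Olig2 (chr16:91225471-91225500, + strand): caggaaaagcacATTGTtcccgccccccgc

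The SOX letters were present in the windows of Cspg4, Enpp6, Olig2 and Nkx2-2, 1 match each, and not in that of Pdgfra. Of 32851 mouse promoter windows of 250 bases, 27.7% held them. The E-box letters CANNTG, a pattern read by basic helix-loop-helix factors such as OLIG1 and OLIG2, were found 3 times before Nkx2-2 and 1 time before Pdgfra, and 66.2% of all windows held at least 1. The NK2 letters AAGTG or CACTT were present for Enpp6 and Nkx2-2 against 40.7% of all windows. The 3 patterns were searched on both strands, matches of different patterns were allowed to overlap, and a match is a description of these letters only.

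In wt/wt brains the level per kilobase of exon was highest for Bcas1 and lowest for Enpp6. On this scale, the normalised value divided by the merged exon length of GENCODE M21, Bcas1 stood at 385.1 ± 13.8, Olig1 at 256.8 ± 25.1, Sox10 at 162.2 ± 14 and Myrf at 111 ± 3.94 (mean ± SD, n = 8 wt/wt mice). Olig2 followed at 103.9 ± 8.89 and Gpr17 at 83.66 ± 7.46, then Pdgfra at 53.1 ± 2.59, Cspg4 at 31.02 ± 2.16, Nkx2-2 at 21.83 ± 3.89 and Enpp6 at 20.55 ± 2.37. Neighbours in this order whose wt/wt mice overlapped were Myrf and Olig2, Olig2 and Gpr17, and Nkx2-2 and Enpp6. The other neighbours did not overlap in any mouse. Exons of Bcas1, Olig1, Gpr17, Pdgfra and Nkx2-2 overlap exons of neighbouring or antisense genes in this annotation, so that their levels are uncertain to that extent. The authors mapped to another build, so the lengths are an approximation.

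**Figure D1:**
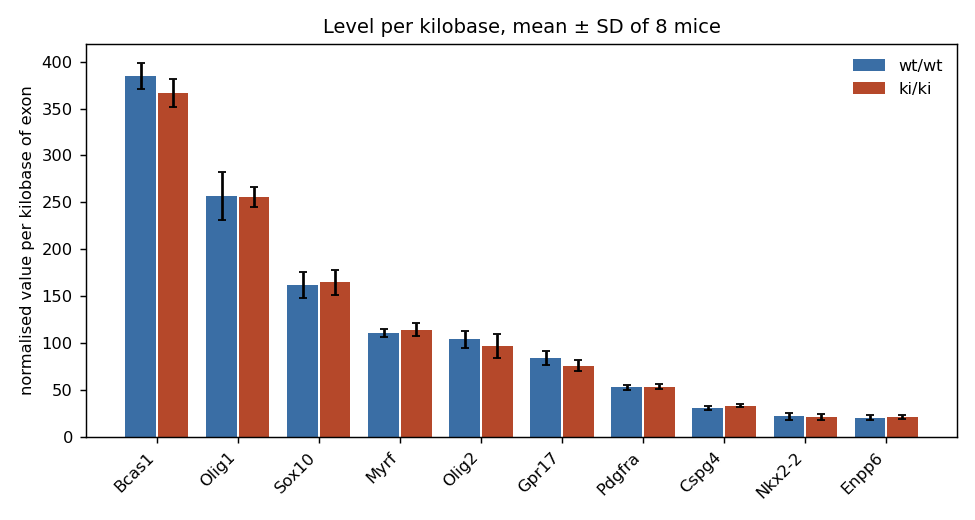
Normalised value per kilobase of merged exon (linear axis from 0) for each of the 10 genes, as the mean of 8 wt/wt mice (blue) and 8 ki/ki mice (red) with bars of ± 1 SD. Bcas1 stood highest at 385.1 and Enpp6 lowest at 20.55 in wt/wt mice, and the means fell in the same order in both genotypes.

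In RNA of the whole brain the 10 genes differed little between the genotypes. None passed an adjusted p of 0.1 by limma, where 0.133% of the 23244 tested genes did (31 genes), and the lowest adjusted p among the 10 was 0.531. The study selected genes for its pathway analysis at an unadjusted p under 0.01 by DESeq2, another test than the limma fit used here. By limma 2 of the 10 were at that level, Gpr17 and Bcas1. Both were of the committed stage and lower in ki/ki mice. Over all tested genes 1.56% passed that level, 0.701% with a lower value in ki/ki. No gene of the 10 separated the genotypes without overlap, which 0.0860% of all genes did. By sign alone 4 of the 10 were lower in ki/ki, where 50.5% of all tested genes were. The median log2 fold change of the 10 was 0.0043, beside -0.00098 over all tested genes, and the median size of the change without its sign was 0.034, beside 0.036 for the 11262 tested genes with a mean between those of Nkx2-2 and Bcas1.

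**Figure D2:**
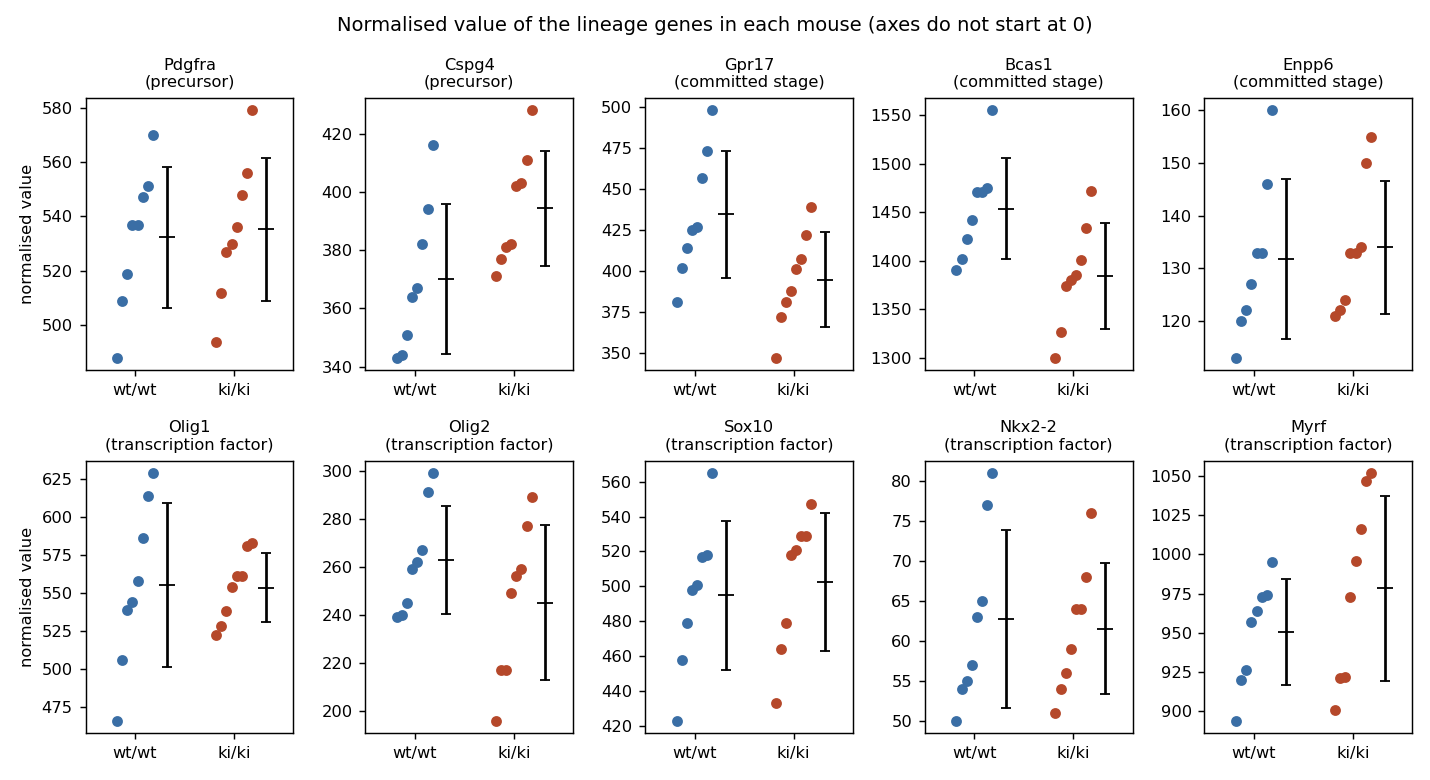
Normalised value of each of the 10 genes in every mouse, 8 wt/wt (blue) and 8 ki/ki (red), each panel with its own linear axis that does not start at 0; points are sorted by value within a genotype and the black mark is the mean ± SD. The genotypes overlap in every panel, and the ki/ki mice sit lower as a group for Gpr17 (347 to 439 against 381 to 498) and Bcas1 (1300 to 1472 against 1391 to 1555).

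The means of both precursor markers were slightly higher in ki/ki mice, and neither passed adjustment. Pdgfra, the receptor through which precursors answer platelet-derived growth factor, ranged from 494 to 579 with a median of 533 in ki/ki and from 488 to 570 with a median of 537 in wt/wt mice. The ranges were almost the same. Its mean was 535.2 ± 26.3 against 532.2 ± 25.9 (SD, n = 8 each), a log2 fold change of 0.01 ± 0.04 (SE), and the 95% confidence interval of the difference was -4.57 to 5.97% (limma adjusted p = 0.989, exact permutation p = 0.827). Most of the spread of Pdgfra was that of counting, since read counts alone give an SD of 23.6 in ki/ki and 22.6 in wt/wt mice.

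Cspg4, which encodes the NG2 proteoglycan of the precursor surface, ranged from 371 to 428 with a median of 392 in ki/ki and from 343 to 416 with a median of 365.5 in wt/wt mice. All 8 ki/ki mice lay above the wt/wt median, but 1 of the 8, with 428, lay above every wt/wt mouse. The mean was 394.4 ± 19.7 against 370.1 ± 25.8, 6.64% higher in ki/ki (95% confidence interval 0.315 to 13.4%). The log2 fold change of 0.09 ± 0.04 (SE) had an unadjusted limma p of 0.0396, a level that 3.07% of all genes passed in this direction, and an adjusted p of 0.814, and the exact two-sided permutation test over mice gave p = 0.0558. NG2 is also made by pericytes. The summed normalised value of 11 pericyte and mural genes was 2871 to 3054 in ki/ki and 2847 to 3058 in wt/wt mice, and of the 10 of them that were tested 5 were higher and 5 lower. Their part in the Cspg4 value was not tested.

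Gpr17, a receptor that appears for a short time in committed cells and restrains their maturation, had the smallest p of the 10 genes. It ranged from 347 to 439 with a median of 394.5 in ki/ki and from 381 to 498 with a median of 426 in wt/wt mice. Of the ki/ki mice, 7 of 8 lay below the wt/wt median and 2 lay below every wt/wt mouse, while 3 wt/wt mice lay above every ki/ki mouse. The mean was 394.6 ± 29.1 against 434.6 ± 38.7, a difference of -9.09% with a 95% confidence interval of -14.9 to -2.9%. The log2 fold change was -0.14 ± 0.05 (SE), with a limma p of 0.00533, the 232nd smallest of all tested genes, an adjusted p of 0.531 and an exact permutation p of 0.0364. The difference did not hold after adjustment over all genes. The annotated exons of Gpr17 overlap those of Lims2 on the opposite strand. The libraries were stranded, but whether the counting used the strand is not stated.

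Bcas1 encodes a protein of early myelinating cells, and it was the gene with the highest level of the 10. It ranged from 1300 to 1472 with a median of 1382 in ki/ki and from 1391 to 1555 with a median of 1456 in wt/wt mice. Of the ki/ki mice, 5 lay below every wt/wt mouse and 7 below the wt/wt median, and the remaining 1 reached 1472. The mean was 1384 ± 54.7 against 1454 ± 52.2, a difference of -4.79% with a 95% confidence interval of -8.24 to -1.21%. The log2 fold change was -0.07 ± 0.03 (SE), with a limma p of 0.00989, an adjusted p of 0.640 and an exact permutation p of 0.0199. The unadjusted p lay at the limit of 0.01, and leaving out 1 mouse moved it between 0.00303 and 0.0393.

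Enpp6, a choline phosphodiesterase of newly forming oligodendrocytes, did not share that direction. It ranged from 121 to 155 in ki/ki, with a median of 133, and from 113 to 160 in wt/wt mice, with a median of 130. The mean was 134 ± 12.6 against 131.8 ± 15.2, a log2 fold change of 0.03 ± 0.07 (SE) with a 95% confidence interval of -7.92 to 12.7% (limma adjusted p = 0.982, exact permutation p = 0.763). The difference of Bcas1 lay within this interval and that of Gpr17 just outside it, and the genes were not tested against each other. Counting alone gives Enpp6 an SD of 11.8 in ki/ki, close to the SD observed, and of 11.2 in wt/wt mice, below it.

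**Figure D3:**
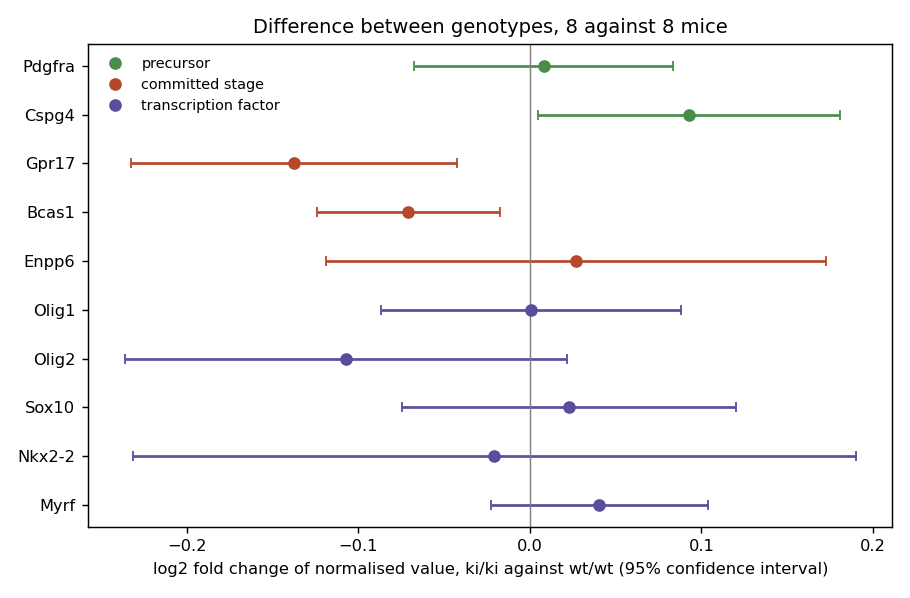
Log2 fold change of ki/ki against wt/wt (points) with the 95% confidence interval from limma (bars) for the 10 genes, coloured by role. The intervals of Cspg4, Gpr17 and Bcas1 leave out 0 before adjustment, that of Cspg4 on the higher side, and none of the 3 passed adjustment over the 23244 tested genes.

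Among the transcription factors, Olig2 had the lowest log2 fold change. OLIG2 specifies the lineage and is kept on from precursor to mature cell. Its normalised value ranged from 196 to 289 with a median of 252.5 in ki/ki and from 239 to 299 with a median of 260.5 in wt/wt mice, so that the ki/ki mice spread further at the low end. The mean was 245 ± 32.2 against 262.8 ± 22.5, a log2 fold change of -0.11 ± 0.06 (SE) and a 95% confidence interval of -15.1 to 1.53% (limma adjusted p = 0.877, exact permutation p = 0.222). The SD of Olig2 in ki/ki mice was above the SD of 16 that counting gives.

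Olig1, the related factor needed for repair of myelin, had nearly equal means in both genotypes. Its value ranged from 522 to 583 with a median of 557.5 in ki/ki and from 466 to 629 with a median of 551 in wt/wt mice, the narrower range lying inside the wider. The mean was 553.5 ± 22.8 against 555.2 ± 54.3 and the 95% confidence interval of the difference was -5.84 to 6.28% (limma adjusted p = 0.9998, exact permutation p = 0.94). The 2 genes lie side by side on chromosome 16 (GRCm38), Olig2 at 91225457 to 91228677 and Olig1 at 91269772 to 91271933, with 41094 bases and 1 annotated gene between them. The test did not compare the changes of Olig1 and Olig2 with each other.

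Sox10, the factor that acts with OLIG2 and later drives myelin genes, ranged from 433 to 547 with a median of 519.5 in ki/ki and from 423 to 565 with a median of 499.5 in wt/wt mice. Its mean was 502.5 ± 39.3 against 494.9 ± 42.7, a 95% confidence interval of -5.05 to 8.69% (limma adjusted p = 0.9754, exact permutation p = 0.718). The spread was above the SD of 22.9 and 21.8 that counting gives. Myrf, the factor that turns on myelin genes, ranged from 901 to 1052 with a median of 984.5 in ki/ki and from 894 to 995 with a median of 960.5 in wt/wt mice. In 4 ki/ki mice it lay above every wt/wt mouse, while the others fell among them. Its mean was 978.5 ± 59.0 against 950.4 ± 33.8, a 95% confidence interval of -1.56 to 7.46% (limma adjusted p = 0.903, exact permutation p = 0.257).

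Nkx2-2, a homeodomain factor of the onset of differentiation, had the lowest value of the 10 before division by length and the widest confidence interval. It ranged from 51 to 76 with a median of 61.5 in ki/ki and from 50 to 81 with a median of 60 in wt/wt mice, and the ranges overlapped almost fully. The mean was 61.5 ± 8.18 against 62.75 ± 11.2 and the 95% confidence interval ran from -14.8 to 14.1% (limma adjusted p = 0.990, exact permutation p = 0.822). Counting alone gives an SD of 8.04 in ki/ki and 7.71 in wt/wt mice, near the SD observed in ki/ki and below that in wt/wt mice.

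The neighbouring stages of the lineage, read through other genes, likewise held no gene past an adjusted p of 0.1 in the main fit. Of 18 further precursor genes, 5 were higher and 13 lower in ki/ki mice, with a median log2 fold change of -0.02. The 3 with the smallest p were Luzp2 (2138 against 2210, log2 fold change -0.05, adjusted p = 0.777), Sox6 (438.9 against 414.8, 0.08, adjusted p = 0.820) and Cacng4 (458.5 against 484, -0.08, adjusted p = 0.864). Sox6 encodes a factor that keeps precursors undifferentiated, and Cacng4 an auxiliary protein of AMPA receptors. One of the 18 was lower at an unadjusted p under 0.05, which 3.01% of all genes were, and 1 was higher.

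Of 16 genes of newly formed oligodendrocytes, 6 were higher and 10 lower, with a median log2 fold change of -0.02. Gpr37, a receptor of differentiating oligodendrocytes, came closest to the threshold of all lineage genes examined. It ranged from 742 to 841 with a median of 765.5 in ki/ki and from 807 to 919 with a median of 850 in wt/wt mice, and 6 ki/ki mice lay below every wt/wt mouse. Its mean was 779.6 against 854.1, a log2 fold change of -0.13 ± 0.03 (SE), with a limma p of 0.000181 and an adjusted p of 0.120. In the other direction Sema4d, a semaphorin of oligodendrocytes, had a mean of 949 in ki/ki and 892.8 in wt/wt mice (log2 fold change 0.09, adjusted p = 0.497), and 6 ki/ki mice lay above every wt/wt mouse. Tcf7l2, a Wnt pathway factor of newly formed cells, had values of 707.9 and 734.8 (-0.05, adjusted p = 0.883).

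Of 25 genes of mature, myelinating oligodendrocytes, 7 were higher and 18 lower, by a median log2 fold change of -0.02. Their summed value was 58872 to 65278 in ki/ki and 59123 to 65546 in wt/wt mice, ranges that covered each other. Anln, a scaffold of septins in myelin, had the smallest p and was the higher way, at 554 against 514.6 (log2 fold change 0.11, adjusted p = 0.631). Cnp, a myelin enzyme, stood at 2949 against 3039 (-0.04, adjusted p = 0.875), and Ppp1r14a at 123.2 against 134.4 (-0.13, adjusted p = 0.877). By staining for the protein CNPase, the paper reported fewer oligodendrocytes in the medulla of ki/ki mice of this age. Whole-brain RNA mixes that area with all others, so a change confined to it was not tested.

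**Figure D4:**
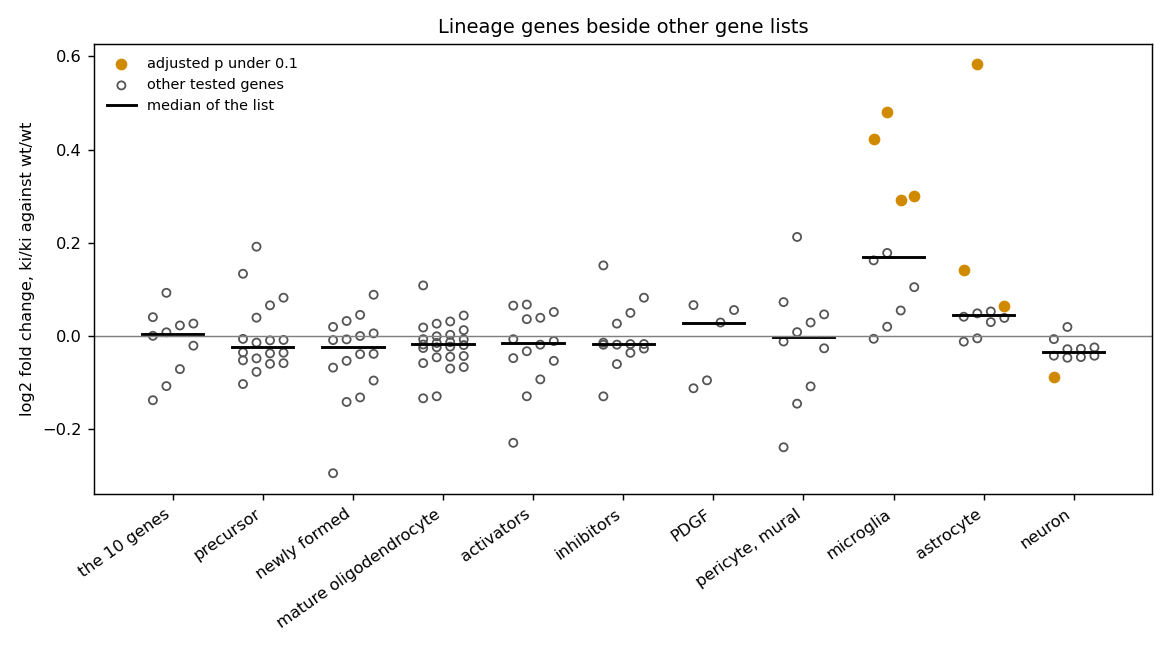
Log2 fold change of ki/ki against wt/wt for each tested gene of the lists named below the axis (circles), with the median of each list (black line) and genes at an adjusted p under 0.1 filled. No gene of the oligodendrocyte lineage lists is filled, while 4 microglia, 3 astrocyte and 1 neuron genes are.

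Among the genes that steer precursors, none passed an adjusted p of 0.1 in the main fit either. Of 14 genes that promote differentiation, 5 were higher and 9 lower, and the 3 with the smallest p were Tcf7l2, Zfp488 (31 against 36.25, log2 fold change -0.23, adjusted p = 0.883), a partner of OLIG2, and Zeb2 (2699 against 2760, -0.03, adjusted p = 0.890). Of 13 that hold differentiation back, 4 were higher and 9 lower. Bmpr1b, a receptor for bone morphogenetic proteins, had a mean of 411.9 in ki/ki and 370.6 in wt/wt mice (0.15, adjusted p = 0.221), and 7 ki/ki mice lay above every wt/wt mouse. Lingo1, a membrane protein of neurons and oligodendrocytes, stood at 2048 against 2134 (-0.06, adjusted p = 0.807), and Sox6 belonged to this list also. Of the growth factor genes that act on PDGF receptors and the second receptor itself, 3 of 5 were higher. Pdgfa, the ligand of the precursor receptor, had a mean of 243.2 in ki/ki and 258.9 in wt/wt mice (-0.09, adjusted p = 0.875), Pdgfc 65.25 and 70.38 (-0.11, adjusted p = 0.911) and Pdgfb 221.1 and 213 (0.06, adjusted p = 0.932).

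Markers of other cell types moved with the genotype in the same brains. Of 10 microglia genes 9 were higher in ki/ki, 4 of them at an adjusted p under 0.1, a level that 0.0946% of all genes passed in that direction. The 4 were the complement genes C1qa (log2 fold change 0.30), C1qb (0.42) and C1qc (0.29) and the receptor gene Trem2 (0.48), and the summed value of the list was 2675 to 2911 in ki/ki and 2332 to 2608 in wt/wt mice. The paper had named these 4 and the astrocyte gene Gfap as upregulated in the same data, so their calls here are no independent support. Of 10 astrocyte genes 8 were higher and 3 passed, Gfap (0.58), Aqp4 (0.14) and Slc1a2 (0.06), and the list summed to 66126 to 68500 against 62521 to 66012. Most of this sum was Slc1a2 alone, with a mean of 45610 in ki/ki and 43650 in wt/wt mice. Of 10 neuron genes 9 were lower and 1 passed, Gad1 (-0.09, adjusted p = 0.0681), where 0.0387% of all genes were lower at that level, and this call was lost in 9 of the 16 fits that left out 1 mouse (adjusted p up to 0.326). Neuron sums were 64479 to 67111 in ki/ki and 64671 to 69352 in wt/wt mice. Of 9 fibroblast and meningeal genes, whose cells also use Pdgfra, 6 were higher and none passed, and the sums were 1007 to 1291 against 1022 to 1139. The part of these cell types in the values of the 10 genes was not tested. Of 8 genes of dividing cells 6 were tested, 3 higher and 3 lower, with sums of 85 to 138 and 83 to 132. Differences in dissection were read through 10 hindbrain genes, summing to 487 to 665 in ki/ki and 490 to 628 in wt/wt mice, with 6 tested, 5 higher and 1 lower (median log2 fold change 0.08), none passing, and Hoxb6 and Hoxb8 at a mean under 1, and through 8 cerebellar genes, of which 5 were higher and 3 lower with none passing.

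Across the 16 mice, after the mean of each genotype was removed, the 10 genes did not rise and fall as 1 block. Pearson's r over the 45 pairs ran from -0.482 for Olig2 and Sox10 to 0.67 for Olig1 and Sox10, with a median of 0.049, and was above 0 in 24 pairs. Olig1 with Sox10 was the single pair with an r over 0.5. Number 7 of the wt/wt mice was the lowest of all 16 for both genes (466 and 423). Number 8 of the wt/wt mice was high for both (614 and 565), and the pair was not examined within each genotype. The neighbouring genes Olig1 and Olig2 had an r of -0.25, and the precursor markers Pdgfra and Cspg4 an r of -0.266. For the other lists the median was taken over genes with a mean of at least 100, a limit not set for the 10. Nkx2-2, with a mean of 61.5 in ki/ki and 62.75 in wt/wt mice, lay under that limit. The median was 0.213 over 253 pairs of mature oligodendrocyte genes, 0.337 over 45 pairs of astrocyte genes and 0.0818 over 66 pairs of further precursor genes. All points share the 16 libraries, and the spread between mice of Pdgfra, and that of Enpp6, Cspg4, Olig1 and Nkx2-2 in ki/ki, was close to that of counting. Gpr17 and Bcas1, both lower in ki/ki, had an r of -0.166 within genotypes.

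**Figure D5:**
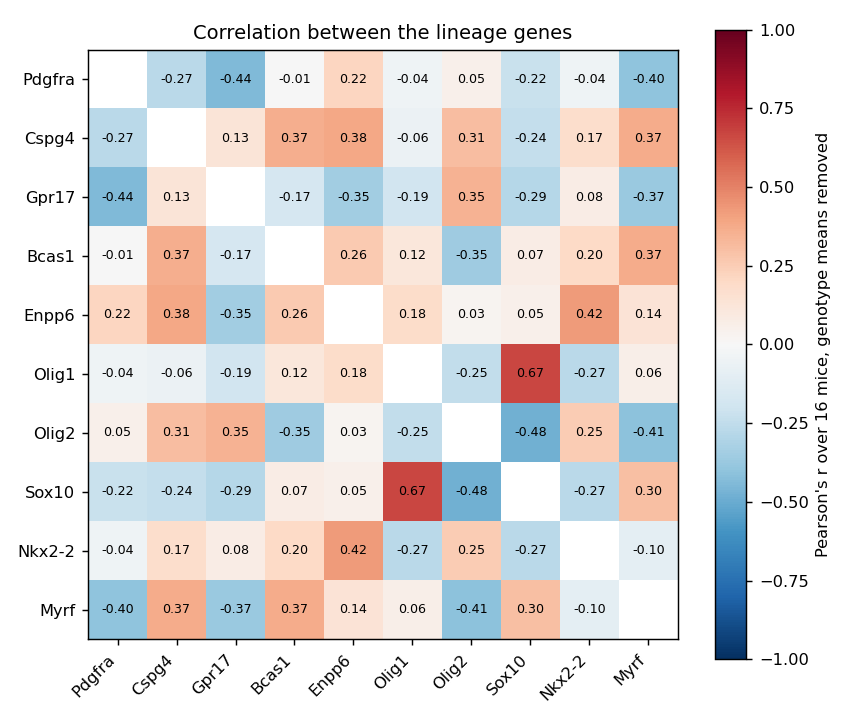
Pearson's r between the 10 genes over 16 mice with the genotype means removed, from -1 (blue) to 1 (red). Values lie between -0.482 and 0.67, and 1 pair, Olig1 and Sox10, exceeds 0.5.

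The genes with the highest r to each of the 10 were searched among the 11182 genes with a mean value of at least 100. None of them was another gene of the 10, though Nkx2-2 lay under that limit and could not be found. For Pdgfra they were Ipcef1 (0.861) and Ykt6 (0.86), and for Cspg4 they were Stx8 (0.848), Tm2d1 (0.841) and Per2 (0.776). For the committed stage, Gpr17 was followed best by Eapp (0.815), E2f6 (0.807) and Acbd5 (0.8), Bcas1 by Nes (0.807), Mapk7 (0.807) and Apba2 (0.801), and Enpp6 by Fam91a1 (0.822), Sptlc2 (0.8) and Thoc3 (0.774). Among the factors, Olig1 was followed by Inafm2 (0.903), Rims2 (0.863) and Rpl32 (0.86), Olig2 by Gm37334 (0.838), Hnrnpa2b1 (0.828) and Cep290 (0.818), and Sox10 by Cops7a (0.855), C1qb (0.851) and Oprd1 (0.849). Nkx2-2 was followed by Ick (0.836), Tbca (0.828) and Top2b (0.769), and Myrf by Atxn2l (0.882), Eps15l1 (0.856) and Hipk2 (0.842). These are the highest of many values over 16 mice and are a description without a test.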

How the data were processed

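The authors made stranded libraries of whole brain total RNA after removing ribosomal RNA and sequenced them. Per the study's methods and the submitters' processing notes, reads were trimmed with Trim Galore 0.6.10 and cutadapt 3.4, aligned with STAR 2.7.10b to GRCm39 and counted per gene with summarizeOverlaps. The deposited values are scores on a normalised linear scale, rounded to whole numbers by the authors; how they were normalised is not given in the sources used here, and DESeq2 1.40.2 is the tool the authors list for testing. The 16 columns of the series table were identical to the tables of the single mice.

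Genes with a sum over 16 and a value over 5 in at least 4 mice of a genotype were kept (23244). Genotype was the single term of a limma 3.58.1 model (R 4.3.3, variance trend, robust estimate) of log2(value + 1), and p-values were adjusted over all kept genes by the Benjamini-Hochberg method. Fold changes are on the log2(value + 1) scale. Exact two-sided permutation tests of single genes used the 12870 splits of the 16 mice (smallest p 0.000155). Depth was estimated from the steps between low values and covers counting error only. Whether the mice came from separate litters is not stated. Symbols matched 52017 of 55404 gene IDs; exon lengths came from GENCODE M21. The members and gene lists were chosen with earlier results of these data known. Named genes were the 10 genes, list genes at an adjusted p under 0.1, the 3 smallest p of each lineage list and the 3 highest r of each of the 10, of which 1 is not reported here. Alternatives were other pseudocounts, filters and scalings, a replicate block, other limma settings and leaving out each mouse.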

Additional observations from a re-analysis of the deposited data

How the results depend on the processing

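No setting brought any of the 10 genes to an adjusted p under 0.1. The number at an unadjusted p under 0.01 was 1 in place of 2 with a pseudocount of 0.1, with no filter, with libraries scaled to the same total, after quantile normalization and with weights per library, and 0 without the variance trend and robust estimate. Leaving out 1 mouse gave 0 to 2. Gpr17 was past that level without 10 of the 16 mice, and lost it without ki/ki mice 3, 6 or 7 or wt/wt mice 1, 5 or 6 (p at most 0.0244). Bcas1 kept it without ki/ki mice 2, 7 or 8 or wt/wt mice 2, 5 or 6, and in 4 of 10 other settings. Both kept their direction throughout, as did Cspg4 (log2 fold change 0.0757 to 0.117, p 0.0109 to 0.101). The log2 fold change of Olig2 ran from -0.143 without ki/ki mouse 7 to -0.063 without ki/ki mouse 3 (p 0.0253 to 0.289), with p under 0.05 also without ki/ki mouse 8, and that of Myrf from 0.0253 without ki/ki mouse 3 to 0.0572 without ki/ki mouse 5. With 1 mouse left out the log2 fold change crossed 0 for Pdgfra (-0.00955 to 0.0244), Enpp6 (-0.00371 to 0.0677), Olig1 (-0.0346 to 0.0271), Sox10 (-0.00883 to 0.0528) and Nkx2-2 (-0.0651 to 0.0339), and the median of the 10 ran from -0.0217 to 0.0205. Over all genes 31 were called, 20 with no filter, 16 without the variance trend and robust estimate, and 25 to 40 without 1 mouse. Of the marker genes, C1qc lost its call without the variance trend and robust estimate (adjusted p = 0.154). Trem2 lost it in that setting (0.464), with no filter (0.104) and on leaving out number 4 of the ki/ki mice (0.147) and numbers 4 (0.159) and 8 (0.119) of the wt/wt mice. Quantile normalization gave Slc1a2 equal values in both genotypes. That method sets a gene of equal rank in every library to a single value, so this setting could not test Slc1a2. In other settings, Slc1a2 lost its call without the trend (0.75) and with no filter (0.202). Gad1 lost it without the trend (0.735), with no filter (0.114), after quantile normalization (0.139) and on leaving out numbers 2, 3, 4, 5 and 7 of the ki/ki mice and 3, 4, 6 and 8 of the wt/wt mice, each singly (0.106 to 0.326). C1qa, C1qb, Aqp4 and Gfap kept theirs in all settings run. The cause of the other shifts was not tested. Lineage genes outside the 10, Gpr37 among them, were not followed through the other settings.

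Both genotypes carry replicate numbers 1 to 8. With the number as a replicate block 46 genes were called, 0 of the 10 were, 2 were at an unadjusted p under 0.01 and their median log2 fold change was 0.00431. The correlation of same-numbered mice was -0.0393 to 0.149, over 0.1 in 1 of 8 pairs, and 3 of 8 ki/ki mice correlated best with their own number. These values cannot decide whether the numbers pair the mice, since a shared litter or batch need not show in such a correlation.

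The interval of Nkx2-2 allows changes of over 10% either way.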
